A study of Homo sapiens with 6 samples.

Results

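The insulin receptor substrates and the FOXO axis were followed here as 10 genes chosen by name: the receptors INSR and IGF1R, the adaptors IRS1 and IRS2, the phosphoinositide 3-kinase subunit PIK3R1, the transcription factors FOXO1 and FOXO3, and SESN3, IGFBP1 and TRIB1. They were found by gene symbol, 1 row each, among 60605 listed genes. All 10 were among the 12829 genes tested. RNA was sequenced from Huh-7 cells, a human hepatoma line, after oleic acid loading (100 µM for 24 h) to give a high-lipid state, followed by starvation. The 3 pectolinarigenin libraries came from cells given this plant flavone at 100 µM for 24 h, and the 3 control libraries from cells given the vehicle DMSO (0 µM pectolinarigenin). Both groups therefore carried the oleic acid load, and no group without it was analysed here. Whether the libraries of a group were grown as separate cultures is not in the labels. The p-values therefore rest on the spread among libraries, which could be technical.

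Insulin and the insulin-like growth factors (IGFs) bind receptor tyrosine kinases, which phosphorylate the IRS adaptors. These recruit phosphoinositide 3-kinase and so activate the kinase AKT. AKT phosphorylates the FOXO transcription factors and keeps them out of the nucleus. In hepatocytes, FOXO proteins that are left in the nucleus are known to raise transcription of genes such as IGFBP1 and IRS2, which makes this axis a main route by which insulin restrains fasting genes.

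Total counts were 16054283 to 20311261 per pectolinarigenin library and 15140022 to 18652800 per control library. The first principal component of the tested genes (80.0% of the variance) separated the groups. Pectolinarigenin libraries 1 to 3 lay at -20.6, -20.6 and -28.0 on it and the control libraries at 22.7 to 23.6. On the second (7.73% of the variance), pectolinarigenin library 3 stood apart from pectolinarigenin libraries 1 and 2. Of 9 hepatocyte markers, 9 were above 1 FPKM (counts scaled by gene length and by library total) in every pectolinarigenin library, and their summed level was 9017 to 9813 FPKM in pectolinarigenin libraries and 12464 to 12654 FPKM in control libraries. Most of this sum came from ALB (mean 3530 FPKM with pectolinarigenin, 5475 FPKM in controls) and AFP (3919 and 4815 FPKM). The groups overlapped for APOA1 and APOB, and the other hepatocyte markers were lower in every pectolinarigenin library. Of 9 markers of other cell types, the leucocyte marker PTPRC and the fibroblast markers COL1A2 and DCN had at most 2 counts in any library. COL1A1, also a fibroblast marker, had 10 to 15 counts in pectolinarigenin libraries and 27 to 35 in control libraries. The blood cell marker CD68 had 3 to 10 counts with pectolinarigenin and 6 to 10 in controls. VWF, an endothelial marker, had 2 to 4 and 1 to 4 counts. In every pectolinarigenin library 3 were at 1 FPKM or more: the blood cell marker LYZ, the endothelial marker PECAM1 and the pericyte marker RGS5. LYZ was at 52.6 to 76.5 FPKM with pectolinarigenin and 39.3 to 39.8 FPKM in controls. PECAM1 was at 1.15 to 1.35 FPKM with pectolinarigenin and 2.28 to 2.61 FPKM in controls. RGS5 was at 1.74 to 2.14 FPKM with pectolinarigenin and 1.14 to 1.30 FPKM in controls. The summed level of these 9 was 56.3 to 79.6 FPKM in pectolinarigenin libraries and 43.4 to 44.0 FPKM in control libraries, most of it from LYZ. The part of these shifts in the results was not tested.

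Of the 10 genes, 4 rose with pectolinarigenin (IGFBP1, IRS2, TRIB1 and FOXO1), 4 fell (SESN3, IRS1, IGF1R and INSR) and 2 did not pass (PIK3R1 and FOXO3). The test was edgeR's quasi-likelihood test with Benjamini-Hochberg adjustment over all 12829 genes and a threshold of 0.05. Under it 50.6% of all tested genes were called, 25.3% in each direction, so the count of called members is read against a background in which about every other gene moved. The sizes differed between the directions: the rises were 1.56-fold to 5.62-fold, and the falls were to 0.761 to 0.838 of the control level. The upper end was IGFBP1, which reached the mean of 1 FPKM needed for testing only through its pectolinarigenin level. The next largest rise was 2.14-fold, of IRS2. Calls of at least 2-fold made up 3.87% of tested genes, and IGFBP1 and IRS2 were among them. The median log2 fold change was 0.14 over the 10 members and 0.00071 over all tested genes, and the median absolute log2 fold change was 0.38 against 0.25. The members were chosen with earlier results of these data known, so these comparisons with all genes are descriptive only.

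**Figure D1:**
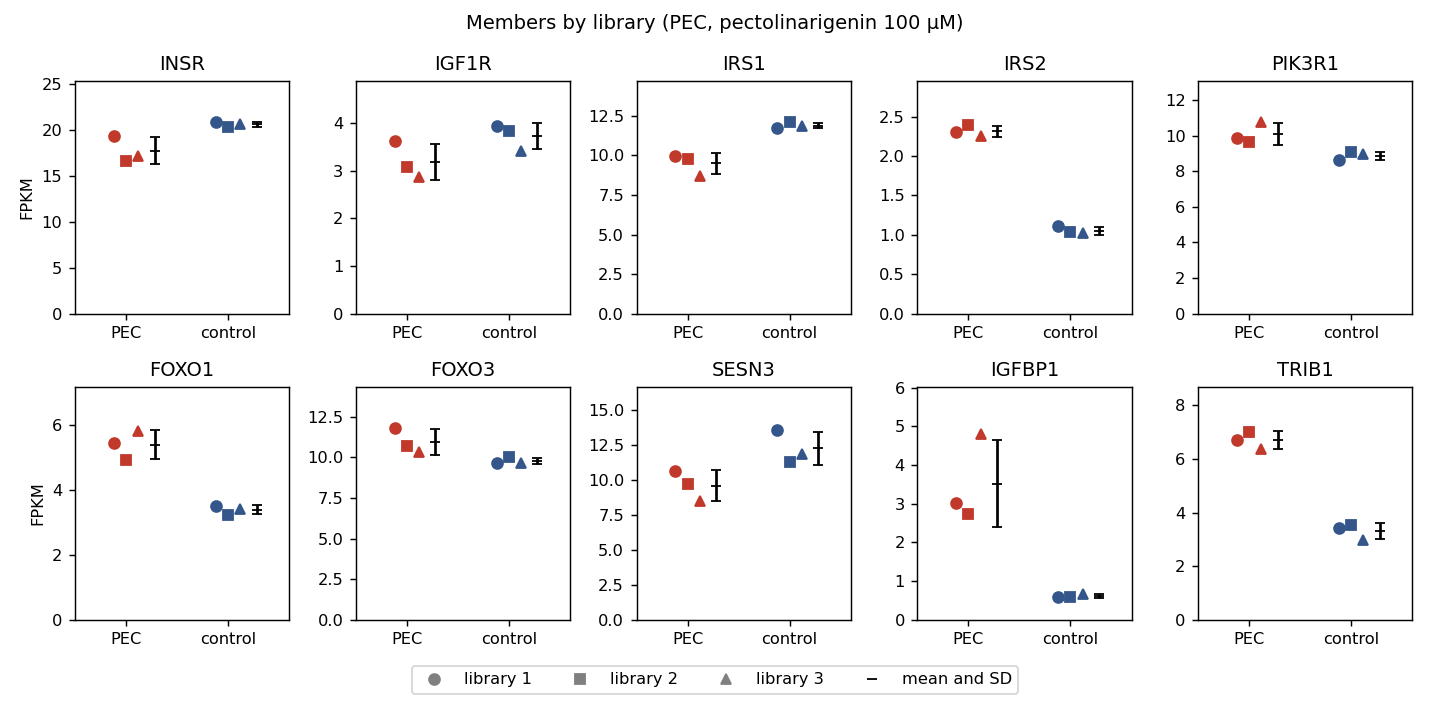
FPKM of each member in every library, pectolinarigenin (PEC) left and control right, with circles, squares and triangles for libraries 1, 2 and 3 and a bar for the mean and SD (n = 3 each). IRS2, TRIB1, FOXO1 and IGFBP1 lie higher in every pectolinarigenin library, as do PIK3R1 and FOXO3, which did not pass. The INSR, IRS1 and SESN3 points lie lower, while IGF1R overlaps.

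INSR encodes the insulin receptor and was the most abundant member per length in both groups. It lies on chromosome 19 (7112255 to 7294034, minus strand, GRCh38). Its level was 19.4, 16.6 and 17.2 FPKM in pectolinarigenin libraries 1 to 3 and 20.8, 20.3 and 20.7 FPKM in control libraries 1 to 3. Every pectolinarigenin library lay below every control library, and the pectolinarigenin libraries were the more spread out (17.7 ± 1.44 against 20.6 ± 0.252 FPKM, SD, n = 3 each). The log2 fold change was -0.26 (SE 0.061; edgeR adjusted p = 0.00282), a fall to 0.838 of the control level. In a culture of a single line, fewer cells of a kind and less of the RNA per cell cannot be told apart.

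IGF1R, the receptor for IGF1 and IGF2, lies on chromosome 15 (98648539 to 98964530, plus strand). It was at 3.61, 3.07 and 2.87 FPKM in pectolinarigenin libraries and 3.94, 3.83 and 3.42 FPKM in control libraries. Pectolinarigenin library 1 lay above control library 3, so the groups overlapped. IGF1R fell by 0.27 on the log2 scale (SE 0.084; edgeR adjusted p = 0.0134). The call was lost without control library 1 (adjusted p = 0.0773) or control library 2 (0.0568), and in limma on log2(FPKM + 1), where the log2 fold change was -0.18 (adjusted p = 0.114).

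The proportion of the 2 receptors overlapped between the groups. IGF1R was at 0.186, 0.184 and 0.167 of the INSR level in pectolinarigenin libraries and at 0.189, 0.188 and 0.165 in control libraries. Library 3 was the lowest of each group. The log2 difference of the ratio was -0.012 (exact permutation test, 2-sided, p = 0.6).

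The IRS adaptors moved in opposite directions. IRS1 and IRS2 dock on the activated receptor and bind phosphoinositide 3-kinase, and in mouse liver each can carry part of the insulin signal. IRS1 (chromosome 2, 226731317 to 226799759, minus strand) was at 9.98, 9.79 and 8.70 FPKM in pectolinarigenin libraries and 11.7, 12.1 and 11.9 FPKM in control libraries. The groups were separate, with pectolinarigenin library 3 the lowest. IRS1 fell by 0.36 on the log2 scale (SE 0.059; edgeR adjusted p = 0.00013), and a larger absolute change was seen in 33.2% of tested genes.

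IRS2 (chromosome 13, 109752698 to 109786568, minus strand) was at 2.31, 2.39 and 2.25 FPKM in pectolinarigenin libraries and 1.11, 1.03 and 1.02 FPKM in control libraries. The lowest pectolinarigenin library was well above the highest control library, and the libraries of each group lay close together (2.32 ± 0.0702 against 1.05 ± 0.0493 FPKM, SD, n = 3 each). IRS2 rose 2.14-fold (log2 fold change 1.10, SE 0.096; edgeR adjusted p = 4.3e-07), and the log2 value was 1.08 to 1.14 when single libraries were left out. Only 1.91% of tested genes had a higher log2 fold change.

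IRS2 rose while IRS1 fell, and the proportion of the pair shifted. Its level was 0.231, 0.244 and 0.259 of that of IRS1 in pectolinarigenin libraries, against 0.0947, 0.0853 and 0.0860 in control libraries. The ratio was 2.76-fold higher with pectolinarigenin (0.245 ± 0.0136 against 0.0887 ± 0.00525, SD, n = 3 each). With 3 libraries a group, an exact 2-sided permutation test cannot go below p = 0.1, which is the value here (0.15 adjusted over the 3 ratios tested). Since IRS2 was higher and IRS1 lower in every pectolinarigenin library, this outcome was fixed and adds nothing to the values of the 2 genes. IRS1 stayed the more abundant adaptor per length in every library.

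**Figure D2:**
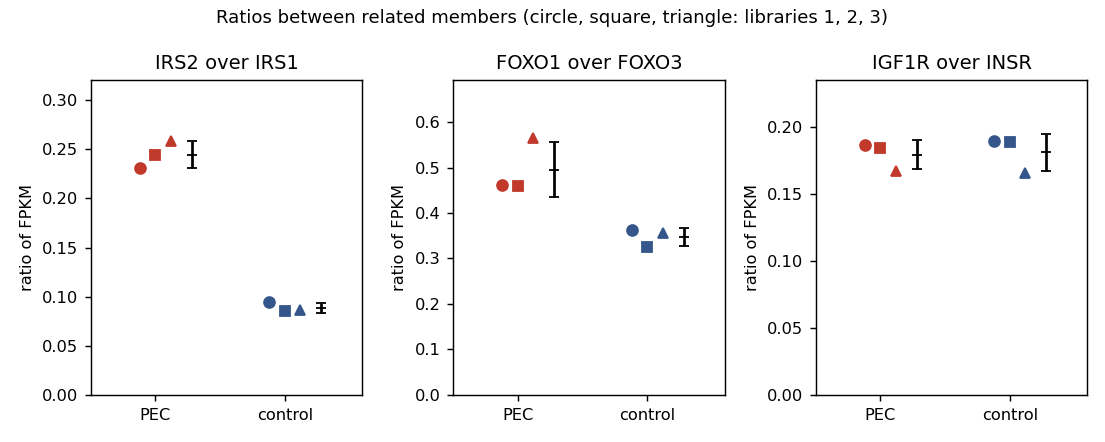
Ratio of FPKM between related members in every library, pectolinarigenin (PEC) left and control right, with a bar for the mean and SD (n = 3 each). IRS2 over IRS1 averages 0.245 with pectolinarigenin and 0.0887 in controls, FOXO1 over FOXO3 is also higher with pectolinarigenin, and IGF1R over INSR overlaps.

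Because the 2 adaptors moved apart, their promoters are shown. The sequences run from 250 bases before to 50 after the start of each gene, from RefSeq on GRCh38.p14, in the direction of transcription. Capitals mark CAAAACA or its reverse complement TGTTTTG, the core of the insulin response element to which FOXO factors are known to bind. The core of the DAF-16 binding element, GTAAACA or TGTTTAC, was searched as well on both strands. It would be in capitals too, and the 2 motifs were counted separately although FOXO factors are known to bind both.
IRS2 promoter, chr13:109786534-109786833, minus strand: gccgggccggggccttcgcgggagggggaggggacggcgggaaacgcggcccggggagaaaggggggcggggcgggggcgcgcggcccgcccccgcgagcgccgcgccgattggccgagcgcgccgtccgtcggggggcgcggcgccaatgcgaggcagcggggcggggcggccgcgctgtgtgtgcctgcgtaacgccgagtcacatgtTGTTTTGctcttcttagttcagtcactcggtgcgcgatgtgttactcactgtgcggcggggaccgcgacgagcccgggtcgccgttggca
IRS1 promoter, chr2:226799771-226800070, minus strand: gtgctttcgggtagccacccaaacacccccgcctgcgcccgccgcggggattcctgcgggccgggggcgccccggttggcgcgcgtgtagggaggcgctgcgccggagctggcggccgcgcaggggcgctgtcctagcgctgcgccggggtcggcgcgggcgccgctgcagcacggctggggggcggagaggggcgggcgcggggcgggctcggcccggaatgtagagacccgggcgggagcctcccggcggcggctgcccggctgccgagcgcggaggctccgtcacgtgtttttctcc

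The IRS2 promoter held TGTTTTG once, from 40 bases before the start site, and no GTAAACA on either strand. The IRS1 promoter held neither motif. Of the 10 members 8 had a promoter in the RefSeq table, IGFBP1 and TRIB1 not being among them, and IRS2 was the 1 of these 8 with a match. Over all 35116 promoters of the same length, CAAAACA was found on either strand in 4.92%, GTAAACA in 3.42% and at least 1 of them in 8.07%. These are matches of letters only and show neither binding nor a cause. The IRS2 and IRS1 windows were similar in base composition, with 75.7% and 79.3% G or C against a median of 58.7% over all promoters.

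PIK3R1 (chromosome 5, 68215720 to 68301821, plus strand) encodes the regulatory subunit p85 alpha, which links the IRS adaptors to the catalytic subunit of phosphoinositide 3-kinase. It was at 9.89, 9.63 and 10.8 FPKM in pectolinarigenin libraries and 8.62, 9.06 and 8.94 FPKM in control libraries. The groups did not overlap, as was true of 9 of the 10 members and of 58.7% of all tested genes on the scaled counts. The log2 fold change of 0.15 (SE 0.061) missed the threshold (edgeR adjusted p = 0.0524). It passed in 7 of 15 alternatives, among them the fits without pectolinarigenin library 1 (0.0397) or 2 (0.0332) and without TMM scaling factors (0.0158), and its log2 fold change was 0.093 without pectolinarigenin library 3.

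FOXO1 is the FOXO factor best known for driving fasting genes in liver. It lies on chromosome 13 (40469953 to 40666597, minus strand). Its level was 5.45, 4.93 and 5.83 FPKM in pectolinarigenin libraries and 3.51, 3.24 and 3.43 FPKM in control libraries. The groups were separate, with pectolinarigenin library 3 the highest. The log2 fold change was 0.64 (SE 0.086; edgeR adjusted p = 2.36e-05), a 1.56-fold rise, and 6.19% of tested genes had a higher log2 fold change. The overlapping non-coding gene LINC00598 on the same strand had 14 to 21 counts in pectolinarigenin libraries and 7 to 20 in control libraries, against 479 to 705 and 309 to 389 counts for FOXO1.

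FOXO3 shares the forkhead DNA-binding domain with FOXO1 and lies on chromosome 6 (108559835 to 108684774, plus strand). It was at 11.8, 10.7 and 10.3 FPKM in pectolinarigenin libraries and 9.68, 9.99 and 9.66 FPKM in control libraries. The groups were separate, but by a small distance. The log2 fold change of 0.12 (SE 0.061) did not pass (edgeR adjusted p = 0.102). It passed without pectolinarigenin library 3 (0.16, adjusted p = 0.0249) and without TMM scaling factors (0.16, adjusted p = 0.0401), while its log2 fold change was 0.068 without pectolinarigenin library 1 (adjusted p = 0.339). FOXO3B, a near-identical copy, had 52 to 85 counts in pectolinarigenin libraries and 39 to 76 in control libraries, so a small part of the FOXO3 reads is uncertain in its assignment.

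FOXO1 over FOXO3 was 0.461, 0.460 and 0.565 in pectolinarigenin libraries and 0.363, 0.324 and 0.355 in control libraries. All pectolinarigenin ratios lay above all control ratios, and pectolinarigenin library 3 was the highest. The log2 difference was 0.51 (exact permutation test, 2-sided, p = 0.1, the smallest possible; 0.15 adjusted over 3 ratios). Since FOXO1 was separate between the groups and FOXO3 moved little, this outcome largely follows from the FOXO1 values and adds little to them. FOXO3 remained the more abundant of the pair per length in every library.

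**Figure D3:**
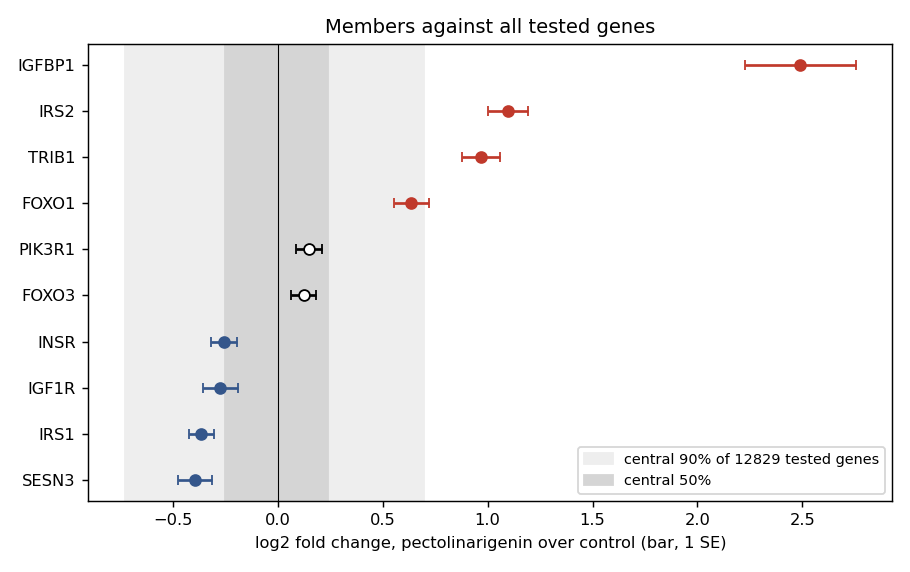
Log2 fold change of each member, pectolinarigenin over control, with 1 SE (edgeR), filled red for higher, filled blue for lower and open for not passed. Grey bands give the central 90% and 50% of the 12829 tested genes; IGFBP1, IRS2 and TRIB1 lie beyond the wider band and the 4 falls lie inside it.

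IGFBP1 encodes a secreted liver protein that binds IGFs and is a textbook gene repressed by insulin. It lies on chromosome 7 (45888357 to 45893668, plus strand). Its counts were 80, 73 and 160 in pectolinarigenin libraries and 18, 18 and 17 in control libraries. The exact 95% Poisson intervals, which cover counting error only, were 63.4 to 99.6, 57.2 to 91.8 and 136 to 187 for the pectolinarigenin counts, and reached no higher than 28.4 for the control counts. Per length the level was 3.03, 2.73 and 4.80 FPKM with pectolinarigenin and 0.590, 0.590 and 0.680 FPKM in controls. Every pectolinarigenin library was far above every control library, and pectolinarigenin library 3 stood above the other two. Testing needed a mean of at least 1 FPKM over the 6 libraries. IGFBP1 averaged 0.620 FPKM in controls and 3.52 FPKM with pectolinarigenin, so it was tested only because of its pectolinarigenin level. IGFBP1 rose 5.62-fold (log2 fold change 2.49, SE 0.27; edgeR adjusted p = 2.67e-06), and 0.366% of tested genes had a higher log2 fold change. Without pectolinarigenin library 3 it was 2.17, a 4.51-fold rise.

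SESN3, a sestrin that restrains TOR complex 1 and is known as a FOXO target, fell. It lies on chromosome 11 (95165513 to 95232541, minus strand). The level was 10.6, 9.72 and 8.46 FPKM in pectolinarigenin libraries and 13.6, 11.3 and 11.9 FPKM in control libraries. The groups were separate but close, since the highest pectolinarigenin library came near the lowest control library. It fell by 0.39 on the log2 scale (SE 0.081; edgeR adjusted p = 9e-04). The antisense gene AP000787.1 overlaps it and had 12 to 23 counts in pectolinarigenin libraries and 14 to 27 in control libraries, against at least 1675 for SESN3. Without a stated strand setting, reads of such a pair cannot be told apart.

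TRIB1 encodes a pseudokinase that brings the ubiquitin ligase COP1 to C/EBP alpha, and in mouse liver it lowers lipid synthesis. It lies on chromosome 8. Its level was 6.70, 7.02 and 6.35 FPKM in pectolinarigenin libraries and 3.43, 3.53 and 2.98 FPKM in control libraries. The groups were separate and each was tight (6.69 ± 0.335 against 3.31 ± 0.293 FPKM, SD, n = 3 each). TRIB1 rose 1.96-fold (log2 fold change 0.97, SE 0.090; edgeR adjusted p = 7.69e-07).

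The order of the members by level per length changed in places. With pectolinarigenin, INSR led and was followed by FOXO3, PIK3R1, SESN3 and IRS1, whose neighbours in this order overlapped, and then by TRIB1, FOXO1, IGFBP1, IGF1R and IRS2. In controls the order was INSR, SESN3, IRS1, FOXO3, PIK3R1, IGF1R, FOXO1, TRIB1, IRS2 and IGFBP1. There SESN3 overlapped IRS1, and IGF1R, FOXO1 and TRIB1 lay at 3.73, 3.39 and 3.31 FPKM with overlapping neighbours. IGFBP1, the lowest member in controls, averaged 3.52 FPKM with pectolinarigenin, against 3.18 FPKM for IGF1R, and these overlapped.

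The genes whose profile over the 6 libraries was most like that of IRS2, by the root mean square difference of centred log2 CPM (counts relative to the scaled library total), were HES1, UPP1 and STX3, at 0.044, 0.047 and 0.055. HES1, a transcriptional repressor known from Notch signalling, had a log2 fold change of 1.11, and UPP1, a uridine phosphorylase, of 1.02. STX3, a membrane fusion protein, had one of 1.09. Most like IRS1 were ACO1 (0.021), CTC1 (0.022) and ARNTL2 (0.023), with log2 fold changes of -0.34, -0.38 and -0.41. With 2 groups of 3 libraries, such likeness mostly reflects a similar difference between the groups.

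The other genes of the pathway were read from 8 lists, which together held 107 tested genes. Of these 31 rose, 32 fell and 44 did not pass, so 58.9% were called against 50.6% of all tested genes. The median log2 fold change was -0.026 over these genes. In none of the 8 lists did all called genes move in 1 direction.

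Among ligands and binding proteins 6 of 13 genes were tested, of which 2 rose, 2 fell and 2 did not pass. IGFBP3, the main IGF carrier of plasma, was at 13.8, 11.4 and 15.7 FPKM in pectolinarigenin libraries and 0.860, 1.02 and 1.13 FPKM in control libraries. No library came near the other group. Its log2 fold change was 3.74 (SE 0.14; edgeR adjusted p = 4.45e-11), a 13.4-fold rise, against 5.62-fold for its neighbour IGFBP1. The 2 genes are separated by 18576 bases on chromosome 7, IGFBP3 being on the minus strand (45912245 to 45921874).

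IGFBP4, another binding protein, went the other way. It was at 1.30, 1.84 and 1.38 FPKM in pectolinarigenin libraries and 3.99, 4.38 and 4.79 FPKM in control libraries, with no overlap (log2 fold change -1.58, SE 0.15; edgeR adjusted p = 1.01e-06). IGFBP7 rose by 0.79 (SE 0.26; edgeR adjusted p = 0.0186) on the log2 scale. It averaged 0.900 FPKM in controls and 1.56 FPKM with pectolinarigenin, so it too passed the expression filter only through its pectolinarigenin level. Without pectolinarigenin library 3 its log2 fold change was 0.46 (adjusted p = 0.136), and the call was also lost without control library 1 (0.0550) or 2 (0.0813). IGFBP2, IGFBP5 and IGFBP6 were below the expression filter.

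IGFBP3 made up 68.8%, 63.9% and 63.8% of the summed FPKM of IGFBP1 to IGFBP7 in pectolinarigenin libraries, against 12.1%, 13.7% and 13.2% in control libraries. IGFBP4 made up 6.50%, 10.3% and 5.60% with pectolinarigenin, against 56.1%, 58.7% and 56.0% in controls. The leading binding protein transcript was thus IGFBP3 in each pectolinarigenin library and IGFBP4 in each control library. IGFBP1 made up 15.1%, 15.3% and 19.5% with pectolinarigenin and 8.30%, 7.91% and 7.94% in controls.

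**Figure D4:**
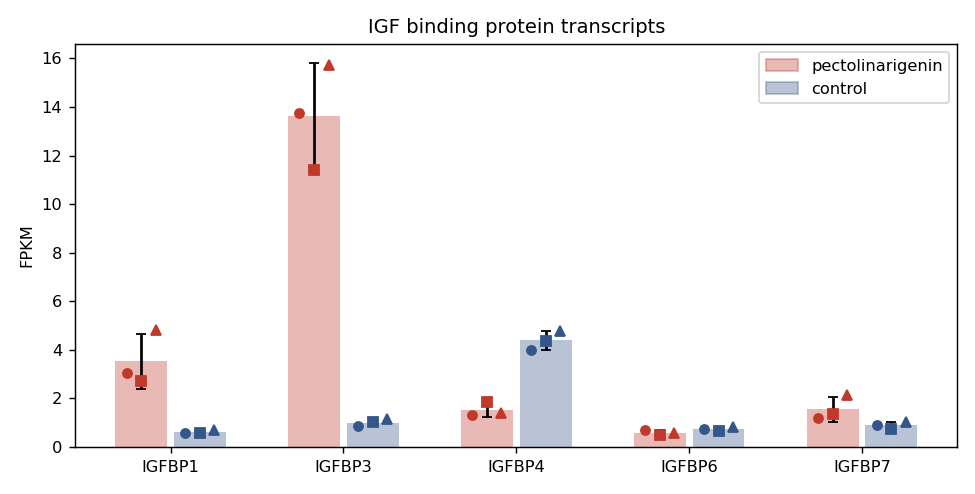
FPKM of the IGF binding protein genes listed above 0.5 FPKM on average in a group, with pectolinarigenin in red left of control in blue; bars are means with SD (n = 3 each) and points are libraries. IGFBP1, IGFBP3 and IGFBP7 are higher in every pectolinarigenin library, IGFBP4 is lower and IGFBP6 overlaps.

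Of the ligands, IGF2 was at 18.3, 14.8 and 12.6 FPKM in pectolinarigenin libraries and 24.8, 32.5 and 30.6 FPKM in control libraries. The groups were separate, with a log2 fold change of -0.99 (SE 0.11; edgeR adjusted p = 4.6e-06). The antisense gene IGF2-AS overlaps IGF2 and had 85 to 117 counts with pectolinarigenin and 83 to 109 in controls. INS was listed at 0 counts in all 6 libraries, and IGF1 had 10 counts over the pectolinarigenin libraries and 5 over the control libraries.

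Of 11 tested receptor adaptors 3 rose and 2 fell. SHC1, which leads to the RAS pathway, fell by 0.51 (SE 0.055) and GAB1, a docking protein, fell by 0.52 (SE 0.064) on the log2 scale. CRK, DOK4 and FRS2 rose by 0.45, 0.25 and 0.22. Of 15 tested genes from PI3 kinase to AKT 3 rose and 5 fell. AKT2, the AKT form known for insulin action in liver, fell by 0.47 (SE 0.060), and its target GSK3B, a glycogen synthase kinase, fell by 0.51 (SE 0.058). SGK1, an AKT-like kinase, was at 8.70, 9.72 and 7.71 FPKM with pectolinarigenin and 18.1, 17.3 and 17.1 FPKM in controls, with no overlap (log2 fold change -1.05, SE 0.071; edgeR adjusted p = 3.57e-08). MLST8, PDPK1 and MAPKAP1, which serve the activation of AKT, rose by 0.50, 0.28 and 0.22.

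Of 15 tested brakes on insulin signalling 5 rose and 5 fell. SOCS3, which blocks cytokine and insulin signalling, was at 1.75, 1.50 and 1.78 FPKM with pectolinarigenin and 4.87, 6.00 and 6.02 FPKM in controls, and these did not overlap (log2 fold change -1.77, SE 0.13; edgeR adjusted p = 7.83e-08). ENPP1, which can inhibit the insulin receptor, fell by 0.75 (SE 0.065) and GRB14, an adaptor that inhibits the receptor, fell by 0.37 (SE 0.069). TRIB3, a relative of TRIB1 reported to bind AKT, was at 19.1, 18.8 and 23.3 FPKM with pectolinarigenin and 9.37, 9.61 and 8.83 FPKM in controls. Every pectolinarigenin library was higher, and the log2 fold change was 1.10 (SE 0.087; edgeR adjusted p = 1.61e-07). GRB10, the close relative of GRB14, rose by 0.64 (SE 0.061) and PIK3IP1, an inhibitor of phosphoinositide 3-kinase, rose by 0.62 (SE 0.13).

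Of 18 tested genes of sestrins and TOR complex 1 control 7 rose and 3 fell. SESN2, the stress-induced sestrin, rose by 0.51 (SE 0.078; edgeR adjusted p = 7.88e-05), the opposite direction to SESN3. It was at 9.88, 10.1 and 10.6 FPKM in pectolinarigenin libraries and 6.47, 7.11 and 7.42 FPKM in control libraries, with no overlap. SESN1, named here after its values were seen, did not pass (log2 fold change -0.15, SE 0.10; edgeR adjusted p = 0.234). EIF4EBP1, the translation repressor phosphorylated by TOR complex 1, rose by 0.62 and TSC2, a TOR complex 1 inhibitor, by 0.50. NPRL3, RPTOR and PRKAA1 fell by 0.37, 0.31 and 0.30.

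Of 12 tested genes of other FOXO factors and FOXO regulators 3 rose and 4 fell. FOXO4 was at 2.24 ± 0.223 FPKM with pectolinarigenin and 3.04 ± 0.135 FPKM in controls (SD, n = 3 each) and fell by 0.48 (SE 0.11; edgeR adjusted p = 0.00216), unlike FOXO1. FOXO6 had 5 counts over the pectolinarigenin libraries and 14 over the control libraries and was not tested. SIRT1, a deacetylase that acts on FOXO proteins, rose by 0.73 (SE 0.083) and PRMT1, which methylates FOXO1, by 0.39. STK4 and SKP2 fell by 0.35 and 0.31. CREBBP, an acetyltransferase, rose by 0.25 with overlapping groups, and lost its call without pectolinarigenin library 1 (log2 fold change 0.15, adjusted p = 0.0748) or control library 1 (0.0812) or 3 (0.0550).

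Of 24 tested genes reported as FOXO targets 5 rose, 9 fell and 10 did not pass, and the median log2 fold change was -0.093. PDK4, which restrains pyruvate oxidation in fasting, was at 3.21, 2.70 and 2.87 FPKM with pectolinarigenin and 1.25, 0.940 and 1.00 FPKM in controls. It rose 2.66-fold with no overlap (log2 fold change 1.41, SE 0.13; edgeR adjusted p = 8.45e-07). The transcription factor KLF6 rose by 0.94 (SE 0.069) and CREBRF by 0.61 (SE 0.073). TXNIP, a thioredoxin-binding protein that also answers to glucose, had the largest fall of the list (-2.53, SE 0.11). DEPP1, an autophagy-related FOXO target, fell by 1.13 (SE 0.097) and SELENOP, the plasma selenium carrier, by 0.92 (SE 0.095).

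The 2 gluconeogenic FOXO targets of the list had a mean below 1 FPKM, so they were not tested, and are named after their values were seen. G6PC1, glucose-6-phosphatase, had 14, 15 and 23 counts in pectolinarigenin libraries and 15, 24 and 13 in control libraries. PCK1, the cytosolic phosphoenolpyruvate carboxykinase, had 37, 46 and 50 counts with pectolinarigenin and 43, 49 and 28 in controls. The groups overlapped for each gene.

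Of 6 tested partners and targets of TRIB1 3 rose and 2 fell. CEBPA, which encodes the C/EBP alpha protein that TRIB1 helps to degrade, was at 94.2 ± 4.68 FPKM with pectolinarigenin and 116.6 ± 6.96 FPKM in controls (SD, n = 3 each) and fell by 0.34 (SE 0.061; edgeR adjusted p = 0.000253). MLXIPL, the glucose-responsive factor ChREBP, fell by 0.39 (SE 0.091). CEBPD rose by 0.27 (SE 0.064), COP1 by 0.22 (SE 0.067) and CEBPB by 0.20 (SE 0.076). Without pectolinarigenin library 2 CEBPB and COP1 lost their calls (adjusted p = 0.0799 and 0.0508), which left 1 rise in this list. CEBPB also lost its call without control library 1 (log2 fold change 0.12, adjusted p = 0.204) or 2 (0.117) or pectolinarigenin library 1 (0.0713), and COP1 without control library 3 (0.0825).

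**Figure D5:**
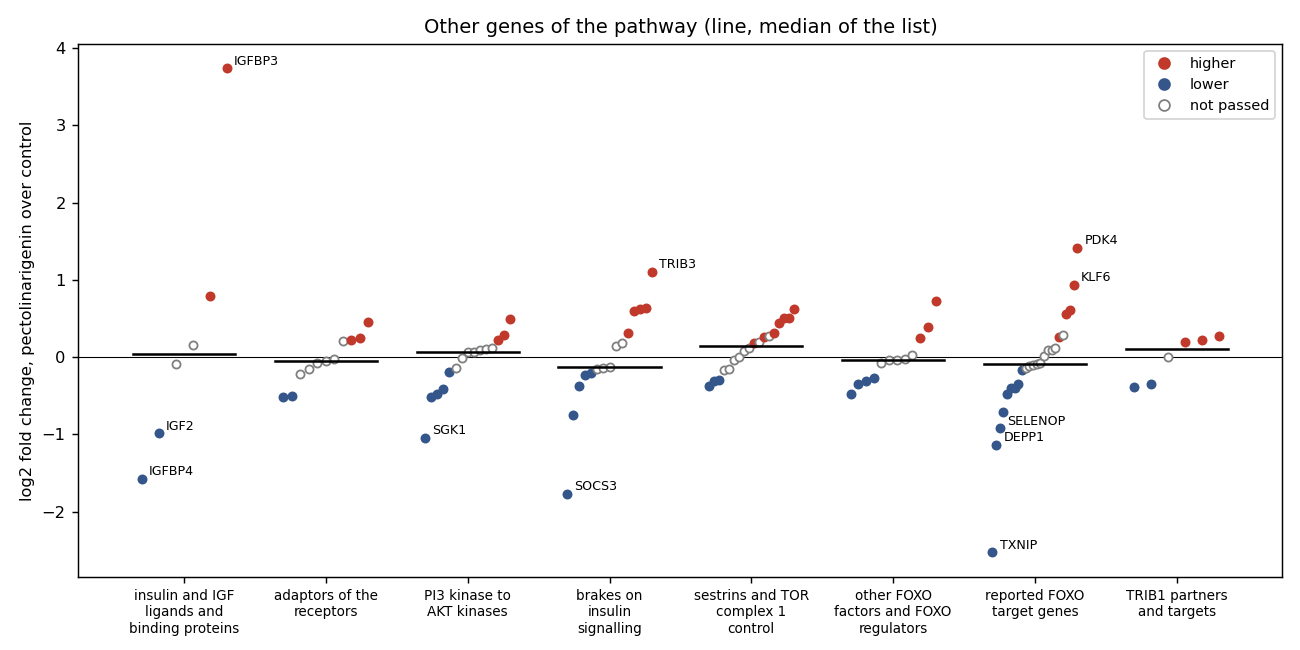
Log2 fold change, pectolinarigenin over control, of each tested gene in the 8 pathway lists, ordered by value within a list, red for higher, blue for lower and open for not passed, with the list's median as a line. Genes with an absolute value of at least 0.9 are named. IGFBP3 is the highest at 3.74 and TXNIP the lowest at -2.53, and the list medians lie between -0.13 and 0.15.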

How the data were processed

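RNA from 3 pectolinarigenin and 3 control libraries was analysed from 1 deposited table. The deposited counts were whole numbers per Ensembl gene, not normalized by the authors. The deposited FPKM were scaled by the authors to the sum of listed counts and a gene length, as tested on 1847 genes (largest coefficient of variation of the length 0.000189). Per the submitters' processing notes the build was GRCh38 and the tools were HTSeq 0.6.1, HISAT2 2.0.1 and cutadapt 1.9.1. Not given in the sources used here are their roles, the annotation, the strand setting and the treatment of multi-mapping reads.

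Genes with a mean FPKM of at least 1 were tested on counts with edgeR 4.0.16 (glmQLFit and glmQLFTest, TMM factors, R 4.3.3). Log2 fold changes are pectolinarigenin over control, and SEs were derived from the F statistic. On simulated counts for 12829 genes of this comparison, 87 of 100 genes changed 1.5-fold and 93 of 100 changed 2-fold were recovered, with 6 unchanged genes called. No other genes were changed, rises and falls were balanced, and all genes had 1 common dispersion. In the data 50.6% of genes were called, so these rates may not carry over. Alternatives used limma 3.58.1 and DESeq2 1.42.0. Within groups no pair of libraries agreed within sampling noise (chi-square per degree of freedom 1.50 to 9.85). Gene positions are from GENCODE 29.

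The members and lists were chosen with earlier results of these data known. The genes named were the 10 members, up to 3 called genes per direction with the smallest p in each list, and the 3 genes most like IRS2 and IRS1. Other named genes were chosen after their values were seen.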

Additional observations from a re-analysis of the deposited data

How the results depend on the processing

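The count of members called was 7 to 9 without single libraries, with 4 to 5 higher and 3 to 4 lower. It was 8 under median-of-ratios scaling and DESeq2, and 10 without TMM factors. At a mean FPKM of at least 5, fewer genes are tested by construction: 7144 in place of 12829. IGF1R, IRS2, FOXO1 and IGFBP1 were below that level, so they were not tested rather than lost. Of the members still tested 4 were called (1 higher). Of the 7144 genes 4098 were called (2088 higher, 2010 lower), in place of 6486 of 12829. The count over all tested genes was 5292 to 6517 without single libraries, and the 63 called pathway genes became 56 to 67. Of 146 member values under alternatives 133 kept direction and side of the threshold, 4 (all of IGF1R) lost the call, 9 (7 of PIK3R1, 2 of FOXO3) gained it and 0 reversed. Of 739 values of the other named genes 721 kept both, 18 lost the call and 0 reversed. As many called genes were higher as lower (3243 each), while 57.5% were higher in limma on log2(FPKM + 1) and 56.9% with library totals alone. Among the lists, 5 sestrin and TOR complex 1 genes fell in place of 3 without the FPKM filter or with filterByExpr. At a mean FPKM of at least 5, 2 ligand and binding protein genes were called in place of 4 and 2 brakes rose in place of 5. In limma, and without control library 1 or 2, 1 ligand or binding protein gene rose in place of 2. Over all alternatives run, IRS2 lay between 0.69 and 1.14 and IGFBP1 between 1.45 and 2.65 on the log2 scale, lowest with a pseudocount of 1 FPKM, which shrinks the folds of low genes. Same-numbered libraries of the groups deviated together only weakly (correlations of 0.010 to 0.037, each the highest of its library). The correlations of all other pairs were negative, from -0.035 to -0.0043. Deviations were taken from the mean of each group, so the correlations of a library with the other group cannot all have 1 sign. The negative values are therefore no separate sign of pairing. With a replicate block 6540 genes were called, 8 members among them (4 higher, 4 lower), and 67 pathway genes.

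Depth limits the lowest genes: 3 counts correspond to 0.148 to 0.187 CPM in pectolinarigenin libraries and 0.161 to 0.198 CPM in control libraries.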
